A study of Mus musculus with 12 samples.

Results

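A group of 10 genes was described that write, copy, read or erase DNA methylation and trimethylation of histone H3 at lysine 27: Uhrf1, Dnmt1, Dnmt3a, Dnmt3b, Tet1, Tet2, Tet3, Ezh2, Eed and Suz12. They were set by gene symbol, with earlier results of these data known, and all 10 were found among the 55228 gene symbols measured. All 10 also passed the filter on low values that left 15043 genes for testing. RNA was sequenced in 12 libraries of cultured mouse regulatory T cells (Tregs), 3 in each of 4 groups. The cells came from the lymph nodes, per the labels, of 16 NOD.Foxp3-GFP mice, whose GFP reports the Treg transcription factor Foxp3, and were sorted as Foxp3.GFP+CD25+ cells. The pool was divided in 3 before sorting, each portion was sorted on its own machine and activated on its own, and the replicate number 1, 2 or 3 marks that sort. The replicates are therefore cultures of 1 pool of animals, and p-values measure the spread between such cultures.

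All cells were transduced on day 2 with a retroviral vector carrying a Thy1.1 reporter, and the cells expressing it were sorted on day 9. EV no IL-2 Tregs carried an empty vector and were washed free of added IL-2 on day 4 and kept without it for 5 days. EV+IL-2 Tregs carried the same vector and stayed in IL-2, recombinant mouse IL-2 in the study's methods. Per the study's methods they were a part of the EV-transduced culture, so EV libraries with the same replicate number may share a culture. The main test did not pair them. 1G12t and 3A10t Tregs were washed like EV no IL-2 Tregs and carried constructs in which an orthogonal IL-2 variant, 1G12 or 3A10, is tethered by a CD25-derived linker to a mutated IL-2Rβ chain that it binds. The comparisons therefore asked how these 10 genes differed with IL-2 in the medium, with each tether in its absence, and between the tethers. As no group carried the mutated chain alone, ligand and chain cannot be told apart in comparisons of a tether with EV Tregs. Values are TPM, a share of all transcripts that is already divided by transcript length, rescaled between libraries (scaled TPM). TPM keep no sequencing depth, so the spread between the 3 libraries is the error given, as SD.

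When a cell copies its DNA, the new strand carries no methyl groups. Uhrf1 recognizes the half-methylated sites and brings Dnmt1, which methylates the new strand, while Dnmt3a and Dnmt3b place methyl groups at sites that had none. The Tet enzymes oxidize methylated cytosine and so open the way to its loss. Ezh2, Eed and Suz12 are the catalytic subunit and the required partners of polycomb repressive complex 2 (PRC2), which methylates H3K27 at silenced genes. In Tregs these systems are known for keeping Foxp3 transcribed, through a demethylated intronic enhancer, and for Ezh2-dependent repression in activated cells.

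IL-2 in the medium went with higher RNA of the maintenance pair and of the PRC2 enzyme. In EV+IL-2 against EV no IL-2 Tregs, Uhrf1 rose 3.32-fold, Dnmt1 1.49-fold and Ezh2 1.42-fold, and all 3 EV+IL-2 libraries lay above all 3 EV no IL-2 libraries for each of them. Of all genes tested, 8.17% rose in that comparison, and the groups did not overlap for 39.6%. Dnmt3a, Dnmt3b, Tet1, Tet2, Tet3, Eed and Suz12 did not pass the test. In 1G12t and 3A10t Tregs, cultured without IL-2, none of the 10 genes passed the limma test against EV no IL-2 Tregs, which 0.0199% of all genes tested did for 1G12t and 0.452% (higher) and 1.60% (lower) for 3A10t.

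The genes lie on 9 chromosomes of the mouse genome (GRCm38, GENCODE M21). Uhrf1 is at chr17:56303321-56323486 on the plus strand, Dnmt1 at chr9:20907209-20959888 on the minus strand, Ezh2 at chr6:47530139-47595341 on the minus strand and Suz12 at chr11:79993106-80034123 on the plus strand. Dnmt3a is at chr12:3806007-3914443, Dnmt3b at chr2:153649450-153687730, Tet1 at chr10:62804570-62908996, Tet2 at chr3:133463679-133545139, Tet3 at chr6:83362373-83459084 and Eed at chr7:89954654-89980983. All 10 are protein-coding. Whether reads were assigned by strand was not stated, and the exons of 5 of the genes overlap an antisense gene: 133 bases in Dnmt3a, 43 in Tet2, 174 in Ezh2, 261 in Eed and 178 in Suz12. Reads from those stretches may belong to either gene.

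The sequence just before the transcription start is shown for the genes that rose together with IL-2, and for Suz12, which differed between the tethers. Each line gives the 250 bases before a RefSeq start (GRCm38.p6), 5′ to 3′ on the strand of the gene. Capitals mark matches on either strand to 4 families of short motifs: the E2F cores TTCCCGC and TTGGCGC, the NF-Y core CCAAT, the cell cycle element CHR (TTTGAA) and the STAT5 motif TTCNNNGAA.
Uhrf1, chr17:56303087-56303336, plus strand: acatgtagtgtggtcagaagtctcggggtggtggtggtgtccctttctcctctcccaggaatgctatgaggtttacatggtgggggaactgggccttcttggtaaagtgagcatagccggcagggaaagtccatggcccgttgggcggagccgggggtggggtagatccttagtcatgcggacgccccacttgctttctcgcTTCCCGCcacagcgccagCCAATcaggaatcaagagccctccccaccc
Dnmt1, chr9:20952624-20952873, minus strand, the most downstream of its 3 windows: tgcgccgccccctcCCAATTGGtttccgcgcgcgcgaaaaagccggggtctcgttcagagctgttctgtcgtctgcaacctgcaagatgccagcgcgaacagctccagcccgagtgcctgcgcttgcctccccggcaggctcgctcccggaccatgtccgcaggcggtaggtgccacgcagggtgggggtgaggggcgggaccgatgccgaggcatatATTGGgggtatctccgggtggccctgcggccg
Ezh2, chr6:47595031-47595280, minus strand: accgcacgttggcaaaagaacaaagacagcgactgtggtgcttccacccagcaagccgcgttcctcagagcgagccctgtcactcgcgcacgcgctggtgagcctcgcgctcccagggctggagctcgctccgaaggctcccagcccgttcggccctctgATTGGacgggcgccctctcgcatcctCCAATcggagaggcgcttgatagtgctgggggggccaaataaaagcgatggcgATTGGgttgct
Suz12, chr11:79992856-79993105, plus strand: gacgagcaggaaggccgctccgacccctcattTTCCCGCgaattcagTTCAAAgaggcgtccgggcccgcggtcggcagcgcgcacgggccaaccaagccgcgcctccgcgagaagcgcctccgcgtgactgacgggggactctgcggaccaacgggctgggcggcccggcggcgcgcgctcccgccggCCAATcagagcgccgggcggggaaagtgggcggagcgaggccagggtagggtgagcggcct
The Uhrf1 window shown held an E2F core 48 bases and a CCAAT 30 bases before the start. The Ezh2 window held 3 CCAAT matches, at 90, 64 and 11 bases, and the Dnmt1 window shown 3, at 236, 233 and 32 bases, the first 2 of which overlap on opposite strands. Uhrf1 has 1 more window listed, with 2 CCAAT matches and no E2F core, and of the other Dnmt1 windows 1 held 4 CCAAT matches and a CHR and 1 held no match. Suz12, which did not pass the test with IL-2, also had an E2F core (at 218 bases), a CCAAT (at 61) and a CHR (at 203). No STAT5 match lay in any of the 15 windows listed for the 10 genes, and no match of any family in those of Dnmt3a, Tet1 and Tet2. Over 32851 such windows of all genes, 5.62% held an E2F core, 33.8% a CCAAT, 16.0% a CHR and 7.02% a STAT5 motif. A match is a description of the letters, and no match says only that these letters are not in the window.

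The 10 genes covered a wide range of levels. Averaged over the 12 libraries, Eed was the most abundant at 142 scaled TPM, above 91.5% of the genes tested. Ezh2 followed at 38.4, Dnmt1 at 35.2, Dnmt3a at 26.7, Tet2 at 24.7, Tet3 at 19.0, Uhrf1 at 17.9 and Suz12 at 10.9 scaled TPM. Dnmt3b at 3.10 and Tet1 at 1.29 scaled TPM came last, the latter above 8.16% of the genes tested. The lowest Eed library (92.9 scaled TPM) lay above the highest Ezh2 library (52.7), and the lowest Suz12 library (5.21) above the highest Dnmt3b library (4.23). The highest Tet1 library (2.19) lay just under the lowest Dnmt3b library (2.24), while the neighbours from Ezh2 down to Suz12 overlapped in their ranges over the 12 libraries. The 3 core PRC2 subunits thus differed in RNA level, with Eed 13.7 ± 1.14 times Suz12 in EV no IL-2 Tregs (SD, n = 3), a ratio chosen for description after the values were seen.

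**Figure D1:**
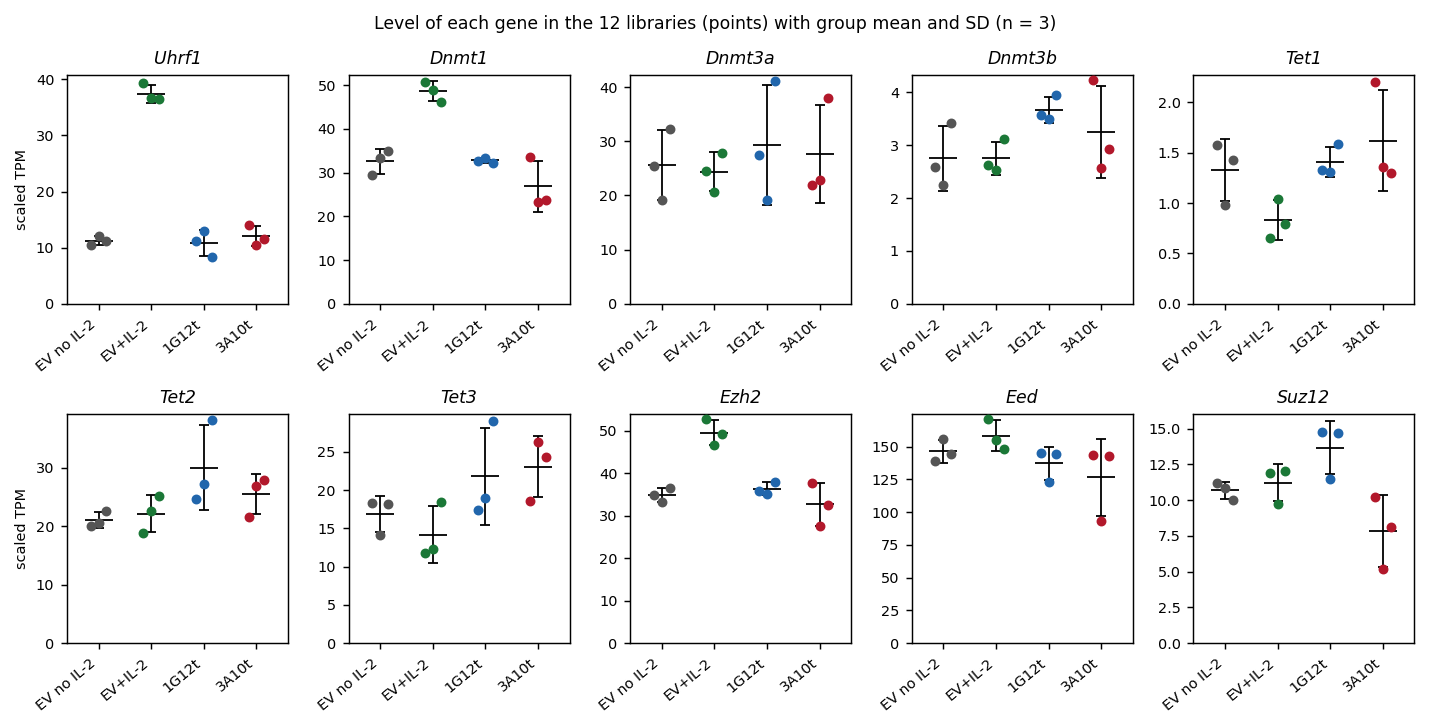
Scaled TPM of each of the 10 genes (vertical axes, each from 0 with its own scale) in the 4 groups; points are single libraries, and bars give the group mean and SD (n = 3). The EV+IL-2 libraries of Uhrf1 lie between 36.4 and 39.3, all other groups between 8.36 and 14.1, and the EV+IL-2 libraries of Dnmt1 and Ezh2 lie above every other library.

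Among the maintenance genes, Uhrf1 changed most. Uhrf1 was at 10.5, 12.1 and 11.2 scaled TPM in EV no IL-2 replicates 1, 2 and 3 and at 39.3, 36.6 and 36.4 in EV+IL-2. It was at 11.1, 13.0 and 8.36 in 1G12t and at 14.1, 10.6 and 11.6 scaled TPM in 3A10t Tregs. Only the EV+IL-2 libraries stood apart, and the other 3 groups overlapped. On the log2(scaled TPM + 1) scale, on which all fold changes below are given and which understates the change of low genes, Uhrf1 was 1.65 higher in EV+IL-2 than in EV no IL-2 Tregs (SE 0.14, limma adjusted p = 3.2e-05).

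Dnmt1, the maintenance methyltransferase, was at 29.4, 33.3 and 34.9 scaled TPM in EV no IL-2 and at 50.7, 48.9 and 46.1 in EV+IL-2 replicates 1, 2 and 3. It was at 32.7, 33.2 and 32.3 in 1G12t and at 33.6, 23.4 and 23.6 scaled TPM in 3A10t Tregs. EV+IL-2 was again above all other libraries, and 3A10t replicates 2 and 3 were the lowest of the 12. The fold change of Dnmt1 in EV+IL-2 against EV no IL-2 was 0.57 (SE 0.13, limma adjusted p = 0.014). That call was lost without EV no IL-2 replicate 1 (adjusted p = 0.0575), without EV+IL-2 replicate 1 (0.0601) or replicate 2 (0.0512), and with TPM as deposited (0.0581). Within a library, the ratio of Uhrf1 to Dnmt1, chosen after the values were seen and not tested, stood at 0.347 ± 0.024 in EV no IL-2, at 0.771 ± 0.021 in EV+IL-2, at 0.330 ± 0.067 in 1G12t and at 0.455 ± 0.036 in 3A10t Tregs (SD, n = 3).

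The de novo methyltransferases did not pass the test with IL-2. Dnmt3a was at 25.4, 19.2 and 32.2 scaled TPM in EV no IL-2 and at 24.6, 20.6 and 27.9 in EV+IL-2 replicates 1, 2 and 3. Its fold change was -0.05 with a 95% interval from -0.68 to 0.59 (limma adjusted p = 0.96). Changes in either direction within that interval were thus compatible with the data. Dnmt3a was at 27.5, 19.3 and 41.2 in 1G12t and at 21.9, 22.9 and 38.01 scaled TPM in 3A10t Tregs, and replicate 3 was the highest in each of the 4 groups. Dnmt3b was a low transcript, at 2.59, 2.24 and 3.42 scaled TPM in EV no IL-2 and at 2.62, 2.52 and 3.11 in EV+IL-2. It was at 3.57, 3.49 and 3.95 in 1G12t and at 4.23, 2.58 and 2.93 scaled TPM in 3A10t Tregs. The 1G12t libraries lay just above those of EV no IL-2, but the fold change of 0.33 did not pass the test (limma adjusted p = 0.72). The ratio of Dnmt3a to Dnmt1 stood at 0.787 ± 0.184 in EV no IL-2 and at 0.504 ± 0.093 in EV+IL-2 Tregs (SD, n = 3, not tested), with overlapping libraries (0.577 to 0.922 against 0.422 to 0.605).

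The Tet enzymes showed no change with IL-2 that passed the test. Tet2 was at 20.1, 20.6 and 22.6 scaled TPM in EV no IL-2 and at 18.8, 22.6 and 25.1 in EV+IL-2 replicates 1, 2 and 3, a fold change of 0.06 (95% interval -0.30 to 0.42). Tet2 was at 24.7, 27.2 and 38.2 in 1G12t and at 21.6, 26.96 and 27.9 scaled TPM in 3A10t Tregs. All 3 1G12t libraries were above the EV no IL-2 libraries, with a fold change of 0.47 that had an unadjusted p under 0.05 and a limma adjusted p of 0.70. Tet3 was at 18.3, 14.2 and 18.2 scaled TPM in EV no IL-2, at 11.8, 12.3 and 18.5 in EV+IL-2, at 17.4, 19.0 and 29.0 in 1G12t and at 18.6, 26.3 and 24.3 in 3A10t Tregs. The 3A10t libraries of Tet3 lay above the EV no IL-2 libraries by a narrow margin (18.6 against 18.3) and above the EV+IL-2 libraries likewise (18.6 against 18.5). Tet1 was near the filter on low values, at 1.57, 0.984 and 1.42 scaled TPM in EV no IL-2 and at 0.655, 1.04 and 0.787 in EV+IL-2, a fold change of -0.34 (limma adjusted p = 0.31). It was at 1.33, 1.31 and 1.58 in 1G12t and at 2.19, 1.36 and 1.299 scaled TPM in 3A10t Tregs. The share of Tet2 in the summed Tet TPM stood at 53.8% ± 3.65 in EV no IL-2, at 59.9% ± 3.20 in EV+IL-2, at 56.6% ± 0.900 in 1G12t and at 50.8% ± 1.41 in 3A10t Tregs, and that of Tet1 between 2.26% and 3.37% on average (SD, n = 3, not tested).

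Of the PRC2 core, the enzyme moved with IL-2 and its partners did not pass the test. Ezh2 was at 34.9, 33.2 and 36.5 scaled TPM in EV no IL-2 and at 52.7, 46.8 and 49.2 in EV+IL-2 replicates 1, 2 and 3. It was at 35.9, 35.2 and 38.04 in 1G12t and at 37.7, 27.7 and 32.7 scaled TPM in 3A10t Tregs. The EV+IL-2 libraries stood above all others, and with IL-2 the fold change was 0.50 (SE 0.11, limma adjusted p = 0.010). The call was lost without EV+IL-2 replicate 1 (adjusted p = 0.0509) and with TPM as deposited (0.0689). Eed, which binds the trimethyl mark and is needed for catalysis, was at 139, 156 and 144 scaled TPM in EV no IL-2 and at 171, 155 and 148 in EV+IL-2 Tregs, a fold change of 0.11 (95% interval -0.23 to 0.45). It was at 145, 123 and 144 in 1G12t and at 143, 92.9 and 143 scaled TPM in 3A10t Tregs, and replicate 2 was the lowest in both. Suz12, which holds the complex together, was at 11.2, 10.8 and 10.0 scaled TPM in EV no IL-2 and at 11.9, 9.74 and 12.05 in EV+IL-2 Tregs, a fold change of 0.06 (95% interval -0.36 to 0.48). It was at 14.7, 11.5 and 14.7 in 1G12t and at 10.2, 5.21 and 8.14 scaled TPM in 3A10t Tregs, so that all 3 3A10t libraries lay below all 3 1G12t libraries.

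Counted over the 10 genes, 3 rose and 0 fell in EV+IL-2 against EV no IL-2 Tregs at a limma adjusted p under 0.05, where 8.17% of all genes tested rose and 5.13% fell. The 3 that rose were also the only ones whose groups did not overlap, which 39.6% of all genes tested did, so that the count without overlap was no higher among the 10 genes than among all genes. At the threshold of the study's methods, a log2 fold change beyond 0.25 with an unadjusted p under 0.01, the count was also 3, against 15.1% of all genes. Uhrf1 passed the adjusted threshold in 15 of 15 alternative settings, Ezh2 in 13 and Dnmt1 in 11.

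**Figure D2:**
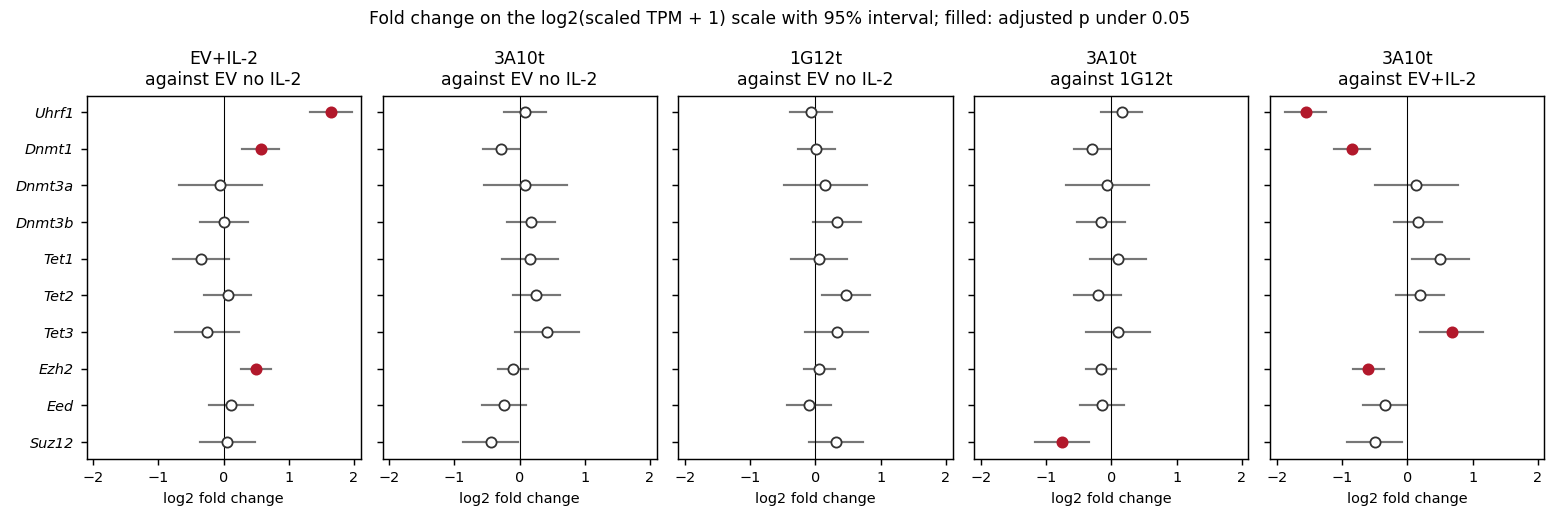
Fold change of each of the 10 genes on the log2(scaled TPM + 1) scale (horizontal axis) in the 5 comparisons (panels); points are estimates, lines are 95% intervals from limma, and filled points have an adjusted p under 0.05. Uhrf1, Dnmt1 and Ezh2 are filled to the right in the first panel and to the left in the last, and no point is filled for either tether against EV no IL-2.

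The tethered constructs, compared with the same EV no IL-2 libraries, left all 10 genes below the threshold. In 3A10t against EV no IL-2 Tregs 0 of 10 genes passed, where 0.452% of all genes tested rose and 1.60% fell, and 2 of 10 had an unadjusted p under 0.05, as had 26.0% of all genes. These 2 were Dnmt1, with a fold change of -0.28 (limma adjusted p = 0.19), and Suz12, with -0.44 (adjusted p = 0.17). Without 3A10t replicate 1, both fell, Dnmt1 by 0.45 (adjusted p = 0.00437) and Suz12 by 0.63 (adjusted p = 0.0301). Uhrf1 and Ezh2, which rose with IL-2, had fold changes of 0.09 (95% interval -0.23 to 0.41) and -0.10 (95% interval -0.33 to 0.13) in 3A10t Tregs. Only Tet3 was without overlap (fold change 0.42, adjusted p = 0.24), against 25.4% of all genes, and 0 of 10 passed the threshold of the study's methods, against 9.50%.

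In 1G12t against EV no IL-2 Tregs 0 of 10 genes passed at a limma adjusted p under 0.05, as did 0.0199% of all genes tested, and 1 of 10, Tet2, had an unadjusted p under 0.05, against 7.04% of all genes. Dnmt3b, Tet2 and Suz12 were without overlap, each higher in 1G12t, which is 3 of 10 against 16.5% of all genes. At the threshold of the study's methods 0 of 10 passed, against 1.36%. The fold change of Uhrf1 was -0.07 (95% interval -0.39 to 0.25), of Dnmt1 0.01 (-0.27 to 0.29) and of Ezh2 0.06 (-0.17 to 0.29).

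Between the tethers, Suz12 was the 1 of 10 genes that passed. It was 0.76 lower on the log2 scale in 3A10t than in 1G12t Tregs, at -0.76 (SE 0.19, limma adjusted p = 0.0497), where 1.30% of all genes tested were higher and 2.96% lower. This call stood at the edge of the threshold: it held in 5 of 15 alternative settings, with adjusted p from 0.00514 to 0.266 and fold changes from -0.95 to -0.54. Of the libraries left out singly, only without 3A10t replicate 1 did it hold, and it was lost without any 1 of the 1G12t replicates 1, 2 or 3 or 3A10t replicates 2 or 3 (adjusted p from 0.0900 to 0.138). Dnmt1 had a fold change of -0.30 (adjusted p = 0.15) and passed only without 3A10t replicate 1 (-0.46, adjusted p = 0.00408). Suz12 was also the 1 gene without overlap, against 26.2% of all genes, and the 1 past the threshold of the study's methods, against 12.4%.

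Against EV+IL-2 Tregs, 3A10t Tregs had lower RNA of the same 3 genes that rose with IL-2, a comparison that shares the EV+IL-2 libraries with the one above. Uhrf1 fell by 1.56 (SE 0.14, limma adjusted p = 6.2e-05), Dnmt1 fell by 0.85 (SE 0.13, adjusted p = 0.0012) and Ezh2 fell by 0.60 (SE 0.11, adjusted p = 0.0029), each in 15 of 15 alternative settings. Tet3 was higher in 3A10t, by 0.68 (SE 0.22, adjusted p = 0.047), but in 7 of 15 settings only. The settings that lost the call included those without EV+IL-2 replicate 1 (0.164) or 2 (0.141) and without 3A10t replicate 2 (0.152) or 3 (0.126). In all, 1 gene of 10 was higher and 3 lower, where 10.3% of all genes tested were higher and 13.0% lower, 6 were without overlap, against 36.9%, and 3 passed the threshold of the study's methods, against 22.1%. Suz12 had a fold change of -0.50 (adjusted p = 0.079), which passed with the sort as a replicate block (adjusted p = 0.0344) and without 3A10t replicate 1 (adjusted p = 0.0138). Tet1 had 0.51 (adjusted p = 0.084), which passed in 2 of 14 alternative settings, with no filter on low values (0.0329) and with eBayes without a trend (0.0366), and Eed had -0.35 (adjusted p = 0.12).

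Ezh2 shares its place in PRC2 with Ezh1, another H3K27 methyltransferase that is best known from non-dividing cells. Ezh1 was at 53.9, 62.3 and 61.0 scaled TPM in EV no IL-2, at 49.9, 50.6 and 44.6 in EV+IL-2, at 55.0, 61.3 and 53.4 in 1G12t and at 55.6, 41.4 and 35.4 in 3A10t Tregs. Its fold change with IL-2 was -0.28 (limma adjusted p = 0.25) and did not pass. The ratio of Ezh2 to Ezh1 within a library stood at 0.593 ± 0.058 in EV no IL-2 and at 1.03 ± 0.092 in EV+IL-2 Tregs (SD, n = 3), with every EV+IL-2 library (0.924 or more) above every EV no IL-2 library (0.648 or less). It stood at 0.646 ± 0.069 in 1G12t and at 0.756 ± 0.144 in 3A10t Tregs, where replicate 3 reached 0.922. The ratio is a description of RNA, with no test.

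**Figure D3:**
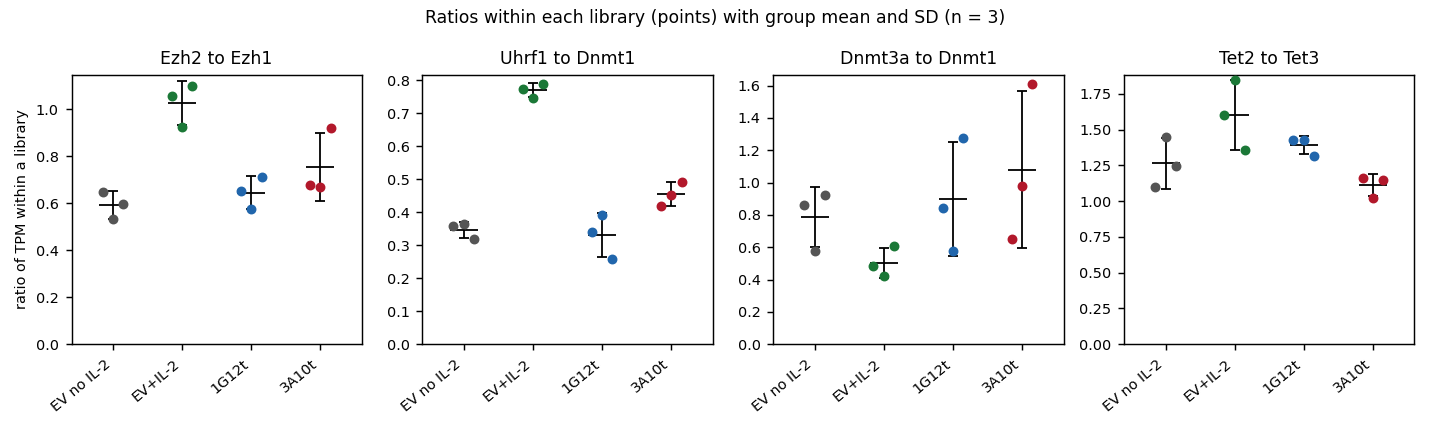
Ratio of scaled TPM of gene pairs within each library (vertical axes from 0) in the 4 groups; points are libraries, and bars give mean and SD (n = 3). Ezh2 to Ezh1 and Uhrf1 to Dnmt1 are highest in EV+IL-2 Tregs, at 1.03 and 0.771 on average, while Dnmt3a to Dnmt1 is lowest there at 0.504 with libraries that overlap those of EV no IL-2 and 1G12t but not of 3A10t Tregs.

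The other genes of these pathways were counted by list, beside a median over all genes tested of -0.01 in EV+IL-2 against EV no IL-2 Tregs. In that comparison 8.17% of all genes tested rose and 5.13% fell. Of 19 readers and partners of DNA methylation that were tested, 3 rose and 0 fell (limma adjusted p under 0.05; median 0.08). Hells, the remodelling ATPase that opens chromatin for methylation, rose from 4.97 to 15.1 scaled TPM (fold change 1.43, adjusted p = 4.8e-05), and Cdca7, its partner that brings it to chromatin, from 17.6 to 35.1 (0.96, adjusted p = 0.0070). Gadd45g, a stress and growth arrest gene linked to demethylation, rose from 23.4 to 102 scaled TPM (2.08, adjusted p = 9.0e-05). Hells was at 5.08 in 1G12t and at 4.96 in 3A10t Tregs, close to EV no IL-2.

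Of 10 other PRC2 subunits, 3 rose and 1 fell with IL-2 (median -0.01), where 8.17% of all genes tested rose and 5.13% fell. The histone chaperone Rbbp7 rose from 311 to 517 scaled TPM (fold change 0.73, adjusted p = 0.0063), Phf19 from 1.44 to 3.41 (0.87, adjusted p = 0.0074) and Epop from 7.59 to 11.7 (0.56, adjusted p = 0.0075). Phf1, like Phf19 a Polycomb-like subunit that helps PRC2 to bind chromatin, fell by 0.47, from 85.9 to 61.9 scaled TPM (adjusted p = 0.0079). The calls in this list thus went in both directions. Of 21 subunits of PRC1 complexes, which ubiquitinate histone H2A and only some of which read H3K27 methylation, 1 rose and 2 fell (median -0.03). Counts this small are close to the shares of all genes tested. Phc3 rose from 22.9 to 37.7 scaled TPM (0.69, adjusted p = 0.0090), Cbx7, a reader of the mark, fell by 0.65, from 28.8 to 18.01 (adjusted p = 0.0086), and Pcgf1 fell by 0.49, from 51.7 to 36.6 (adjusted p = 0.030). The Pcgf1 call was lost without any 1 of EV no IL-2 replicates 1, 2 or 3 or EV+IL-2 replicates 1 or 3 (adjusted p from 0.0665 to 0.111).

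None of 5 H3K27 demethylases and PR-DUB deubiquitinase subunits tested passed with IL-2 in either direction by limma, with 2 of 5 at an unadjusted p under 0.05, where 26.3% of all genes were (median -0.18). Of all genes tested, 8.17% rose and 5.13% fell. The demethylase Kdm6b was at 11.8 ± 1.49 scaled TPM in EV no IL-2 and at 8.58 ± 0.612 in EV+IL-2 Tregs (SD, n = 3; fold change -0.41, adjusted p = 0.10). Of 6 enzymes that supply the methyl donor or the cofactor of Tet and Kdm6 enzymes, 1 rose, Ahcy, which clears the product of methylation (10.4 to 16.2 scaled TPM, 0.60, adjusted p = 0.0035; list median 0.06). Of 13 E2F and pocket proteins, which switch the S phase program on and off, 6 rose and 0 fell (median 0.13), among them E2f1 from 3.33 to 9.92 scaled TPM (1.29, adjusted p = 0.0043), E2f7 from 0.565 to 5.19 (1.99) and E2f8 from 0.403 to 4.90 (2.07). E2f7 and E2f8 reached the filter on low values only through the EV+IL-2 libraries, which leaves 4 of the 6 that did not depend on it. Of 21 S phase and proliferation genes, 18 rose and 0 fell (median 1.47), with Mki67 from 1.24 to 9.90 and Ccna2 from 2.25 to 33.6 scaled TPM. The rise of Uhrf1, Dnmt1 and Ezh2 thus came in libraries whose summed S phase list was 1120 to 1343 scaled TPM, against 549 to 586 in EV no IL-2 Tregs, 456 to 579 in 1G12t Tregs and 552 to 644 in 3A10t Tregs. Its part in their rise was not tested. In bulk RNA, more cells expressing a gene and more RNA per cell cannot be told apart.

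**Figure D4:**
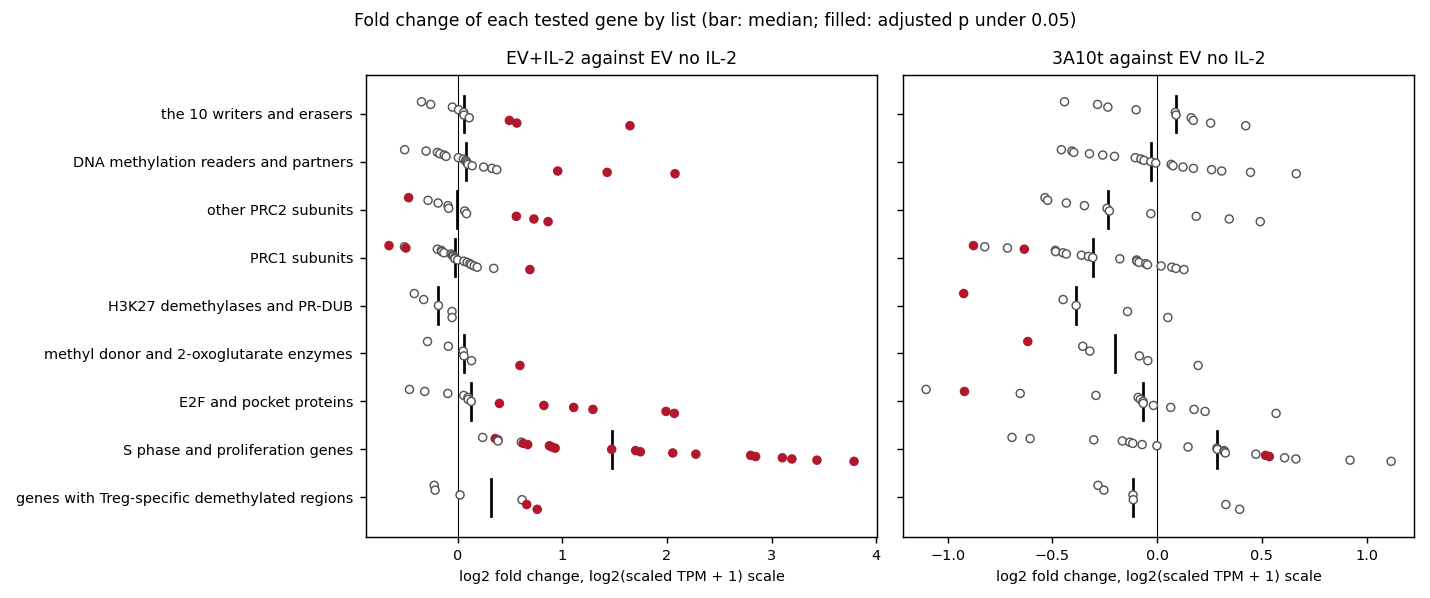
Fold change on the log2(scaled TPM + 1) scale (horizontal axis) of each tested gene of the 9 lists (rows) in EV+IL-2 (left) and 3A10t (right) against the same EV no IL-2 libraries; bars are list medians, and filled points have an adjusted p under 0.05. The S phase list has its median at 1.47 on the left and at 0.29 on the right, and the axes differ between the panels.

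In 3A10t against EV no IL-2 Tregs, whose median over all genes tested was 0.03, the polycomb lists were mostly on the lower side. The median was -0.23 over the other PRC2 subunits (0 of 10 called), -0.31 over PRC1 subunits (0 higher, 2 lower of 21) and -0.39 over the H3K27 demethylases and PR-DUB (1 lower of 5). Of all genes tested, 0.452% rose and 1.60% fell. An unadjusted limma p under 0.05 was seen for 7 of 10 other PRC2 subunits, against 26.0% of all genes. It was seen for 9 of 21 PRC1 subunits and 3 of 5 H3K27 demethylases and PR-DUB subunits. The other PRC2 subunits went both ways, with 3 fold changes above 0 and 7 below. At the threshold of the study's methods 3 of these 10 passed, against 9.50% of all genes. The lower side was not particular to polycomb. The median was -0.20 over the methyl donor list and -0.11 over genes with Treg-specific demethylated regions. It was -0.07 over the E2F list, -0.03 over readers and partners and 0.29 over the S phase list. Kdm6a, an H3K27 demethylase, was at 19.4, 21.7 and 21.6 scaled TPM in EV no IL-2, at 22.1, 19.1 and 19.2 in EV+IL-2, at 19.9, 22.3 and 21.5 in 1G12t and at 13.7, 8.82 and 9.63 in 3A10t Tregs. All 3 3A10t libraries lay below the other 9. It fell by 0.92 against EV no IL-2 (SE 0.14, limma adjusted p = 0.018), by 0.95 against 1G12t (adjusted p = 0.012) and by 0.87 against EV+IL-2 (adjusted p = 0.0015). The first call was lost without EV no IL-2 replicate 2 (0.0994) or 3 (0.0910) and 3A10t replicate 2 (0.0547) or 3 (0.0736), the second without 1G12t replicate 3 (0.0575) or 3A10t replicate 3 (0.0567), and both with only the 6 libraries compared (0.255 and 0.266). The 2 PRC1 genes called lower were Cbx7 (28.8 to 18.4 scaled TPM, adjusted p = 0.044) and Bmi1 (20.2 to 10.9, adjusted p = 0.036). The 1 pocket protein called lower was Rbl2 (129 to 68.2, adjusted p = 0.0070), the 1 methyl donor enzyme Mtr (10.5 to 6.49, adjusted p = 0.038), and the 2 S phase genes called higher were Top2a (7.58 to 11.3, adjusted p = 0.033) and Gins2 (4.96 to 7.68, adjusted p = 0.050). Bmi1, Rbl2, Mtr, Top2a and Gins2 were named after their values were seen. In 1G12t against EV no IL-2 Tregs 0 genes of any of these lists were called by limma, against 0.0199% of all genes tested. Between 0 and 2 genes of each list had an unadjusted p under 0.05, against 7.04% of all genes.

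The genes known for Treg-specific demethylated regions moved in part, where 8.17% of all genes tested rose with IL-2 and 5.13% fell. Of 6 tested, 2 rose with IL-2 and 0 fell (median 0.32): Il2ra, which encodes CD25, from 412 to 700 scaled TPM (0.76, adjusted p = 0.0012), and Tnfrsf18 from 1760 to 2786 (0.66, adjusted p = 0.0055). Foxp3 itself was at 494 ± 5.97 in EV no IL-2 and at 502 ± 6.83 scaled TPM in EV+IL-2 Tregs (SD, n = 3), a fold change of 0.02 (95% interval -0.15 to 0.20). Foxp3 was at 463, 369 and 391 in 3A10t Tregs, below all other libraries. Against EV no IL-2 its fold change was -0.28 (limma adjusted p = 0.082), which passed without 3A10t replicate 1 (adjusted p = 0.00129). Against EV+IL-2, lower Foxp3 in 3A10t passed in 11 of 15 alternative settings (fold changes from -0.40 to -0.25). In that comparison 13.0% of all genes tested were lower. No methylation of DNA or histones was measured.

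Dnmt3a and Tet2 were highest in replicate 3 in all 4 groups, a pattern chosen after the values were seen. Of all genes tested, 7.44% had one and the same replicate highest in all 4 groups, and 3.43% had replicate 3. The difference between sorts had an unadjusted p of 0.00064 for Dnmt3a and 0.0065 for Tet2, and limma adjusted p of 0.19 and 0.30, so that neither passed. Over all genes, 5 passed an adjusted p under 0.05 for the sort. Tet3 was highest in replicate 3 in EV+IL-2 and 1G12t Tregs only.

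**Figure D5:**
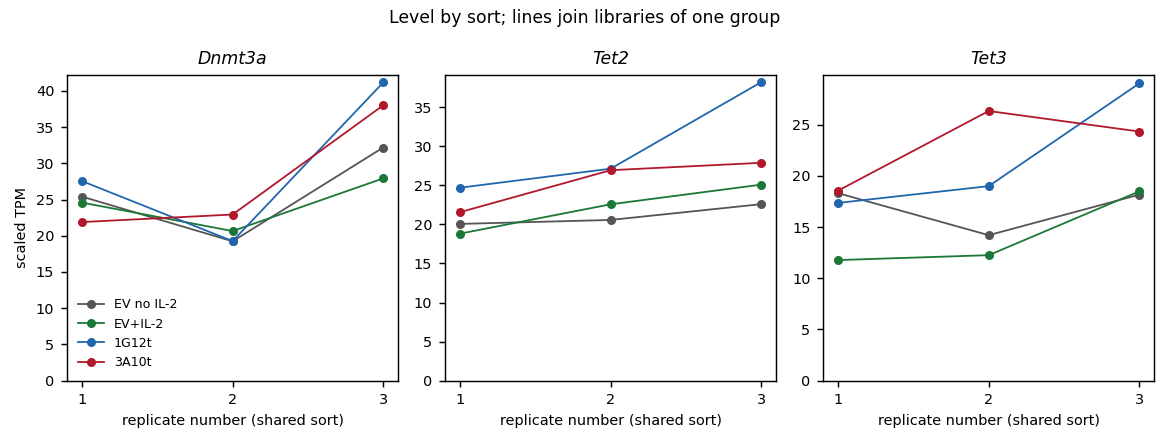
Scaled TPM of Dnmt3a, Tet2 and Tet3 (vertical axes from 0) by replicate number, which marks the shared sort and has no order; each line joins the 3 libraries of a group. Replicate 3 is the highest of its group in all 4 groups for Dnmt3a (27.9 to 41.2) and Tet2 (22.6 to 38.2).

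The genes whose levels over the 12 libraries were most like those of the 3 genes that rose were found among 10002 genes with a mean of at least 5 TPM, by Pearson's r of log2(scaled TPM + 1). For Uhrf1 these were Map3k8 (r = 0.986), Tex2 (0.983) and Tacc3 (0.983), for Dnmt1 Slc19a2 (0.986), Lrrc32 (0.985) and Wee1 (0.985), and for Ezh2 Sept8 (0.979), Itih5 (0.979) and Fut8 (0.969). These 9 were picked for likeness to genes that were highest in EV+IL-2 Tregs, so their own difference there would be no separate result. The points share libraries, sorts and group means, so these values describe the 12 libraries only. Among the 3 genes that rose, Dnmt1 and Ezh2 had r = 0.941, Uhrf1 and Ezh2 0.867 and Dnmt1 and Uhrf1 0.852.

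The libraries differed in composition by group. Gene symbols above 0 numbered 30393 to 36239 in EV+IL-2 Tregs, below the 37930 to 43285 of the other 9 libraries. The 10 most abundant genes took 10.8% to 13.5% of TPM in 3A10t Tregs, against 8.85% to 9.92% in the other 3 groups, and the scaling factors ran from 0.854, in 3A10t replicate 2, to 1.09. The part of these differences in the results above was not tested. The median SD of the 10 genes within a group stood at 0.11 in EV no IL-2, at 0.14 in EV+IL-2, at 0.16 in 1G12t and at 0.27 in 3A10t Tregs on the log2 scale, where the medians of all genes were 0.12, 0.11, 0.15 and 0.22. Summed Treg markers (Foxp3, Il2ra and Ikzf2) stood at 1034 to 1069 scaled TPM in EV no IL-2, at 1420 to 1449 in EV+IL-2, at 1075 to 1090 in 1G12t and at 884 to 1054 in 3A10t Tregs. B cell markers summed to 8.34 to 16.0, of which Ms4a1 was at most 0.668, and CD8 markers to 3.45 to 6.51. Of 5 myeloid markers, Cst3 made up nearly all of a sum of 441 to 764, and the others were at most 1.73 each. The globin gene Hba-a1 stood at 0.439 to 0.904 in EV no IL-2, at 14.2 to 23.8 in EV+IL-2, at 0.549 to 1.36 in 1G12t and at 0.995 to 2.31 scaled TPM in 3A10t Tregs, while Hbb-bs was at 0.337 or less in EV+IL-2 Tregs. The part of either in the results above was not tested.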

How the data were processed

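Groups and replicates were read from the labels. The authors used Cutadapt 1.18 to trim reads, STAR 2.5.3 to align them to the mouse genome (mm10, GRCm38) and RSEM 1.3.0 with a GENCODE annotation to estimate expression, and deposited TPM for 55228 gene symbols in 12 libraries. Their tests used counts with DESeq2 1.26, which were not used here. TPM keep no depth, so counting error is unknown.

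The TPM were divided by median-of-ratios factors over genes whose mean TPM was 1 or more, and these 15043 genes were tested on log2(scaled TPM + 1) with limma 3.58.1 in R 4.3.3 (lmFit, eBayes with a trend, 1 mean per group, all 12 libraries, no block). P-values were adjusted by Benjamini-Hochberg over all genes tested, and a gene rose, fell or was called at an adjusted p under 0.05. The 3 comparisons with EV no IL-2 share its libraries, and those with 3A10t share that group. The rule on names took all 10 genes, the genes of each list called with IL-2 (at most 3 higher and 3 lower by size) and Ezh1, Kdm6a, Kdm6b, Foxp3, Mki67, E2f1 and Hells. The members, lists and tests were chosen with earlier results of these data known. The script was tested on simulated data.

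Replicate numbers pair libraries per the labels, as each marks a shared sort. Deviations from the group means correlated at a mean r of 0.041 over 18 same-numbered pairs (-0.11 to 0.15, 3 over 0.1) and -0.020 over 36 others. Alternatives were other pseudocounts, filters, scalings and variance models, the replicate block, the threshold of the study's methods and each library left out in turn. List genes and 2 ratios were added to the alternatives after the data were seen. Positions are from GENCODE M21 and promoters from RefSeq (GRCm38.p6, all 10 genes matched). Figures were drawn with Python 3.11.15 and matplotlib 3.10.9. A marker gene is not reported here.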

Additional observations from a re-analysis of the deposited data

How the results depend on the processing

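Over 740 alternative values of the 10 genes, 675 kept direction and side of the threshold, 24 lost and 7 gained the threshold, and 34 changed sign, none of them in a comparison in which the gene was called. The count in EV+IL-2 against EV no IL-2 was 1 with TPM as deposited and 1 to 3 with single libraries left out. The count in 3A10t against 1G12t was 0 with a pseudocount of 5, no filter, quantile normalization, only the 6 libraries compared or eBayes without a trend, and 0 to 2 with single libraries left out, which gave 0 to 2 against EV no IL-2 as well. The replicate block raised the count in 3A10t against EV+IL-2 from 4 to 5 through Suz12 (-0.50, adjusted p = 0.0344) and changed no other call of the 10 genes. The cause of these changes was not tested. The unscaled TPM moved the median of all genes in 3A10t against 1G12t from -0.02 to -0.18, and changes there are relative to that shift.

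With TPM as deposited, signs changed for Dnmt3b in EV+IL-2 against EV no IL-2 (-0.036), Uhrf1 (-0.049) and Dnmt3a (-0.054) in 3A10t against EV no IL-2, and Uhrf1 (-0.019), Tet1 (-0.0053) and Tet3 (-0.086) in 3A10t against 1G12t. With quantile normalization they changed for Dnmt3b in EV+IL-2 against EV no IL-2 (-0.017), Tet1 (-0.013) and Ezh2 (0.0076) in 3A10t against EV no IL-2, Tet1 in 1G12t against EV no IL-2 (-0.19) and Dnmt3a in 3A10t against 1G12t (0.0080). With single libraries left out, fold changes spanned 0 in EV+IL-2 against EV no IL-2 for Dnmt3a (-0.23 to 0.12), Dnmt3b (-0.090 to 0.13) and Tet2 (-0.026 to 0.17). They did so in 3A10t against EV no IL-2 for Dnmt3a (-0.16 to 0.27), Uhrf1 (-0.018 to 0.17) and Ezh2 (-0.20 to 0.0047), and in 1G12t against EV no IL-2 for Dnmt1 (-0.058 to 0.059), Dnmt3a (-0.12 to 0.41), Tet1 (-0.056 to 0.13) and Uhrf1 (-0.20 to 0.090). In 3A10t against 1G12t they did so for Dnmt3a (-0.32 to 0.21), Eed (-0.25 to 0.054), Tet1 (-0.044 to 0.19) and Tet3 (-0.038 to 0.32), and in 3A10t against EV+IL-2 for Dnmt3a (-0.11 to 0.28).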
